A study of Homo sapiens with 6 samples.

Results

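The genes described here are 10 components of the TGF-beta and BMP pathways, listed by name, with earlier results of these data known: the ligands TGFB1, BMP4 and BMP7, the receptor TGFBR2, the signal transducer SMAD3, the inhibitory SMADs SMAD6 and SMAD7, and the target genes ID1, ID2 and ID3. They were 10 of the 56303 gene symbols in the count table, and all 10 had enough counts to be tested. RNA-seq was performed on the human colon adenocarcinoma line SW480 to learn which transcripts depend on the splicing factor RBM39. The groups were cells infected with lentivirus for a non-silencing hairpin (shCtrl, labelled WT, 3 libraries) and cells infected with lentivirus for a hairpin against RBM39 (shRBM39, labelled RBM39 knockdown, 3 libraries). Both kinds of cells were grown in serum-containing medium without added TGF-beta or BMP, as far as the labels say, and the study selected stable lines, described as clonal, with puromycin. How many hairpin sequences or clones stand behind shRBM39 is not given, so the effect of RBM39 and that of 1 hairpin or line cannot be told apart.

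In both pathways a dimeric ligand brings together type I and type II receptor kinases. The TGF-beta branch phosphorylates SMAD2 and SMAD3 and the BMP branch SMAD1, SMAD5 and SMAD9, after which either set binds the shared partner SMAD4 and enters the nucleus. SMAD6 and SMAD7 are induced by the pathway and inhibit it, and the ID genes are classical BMP targets whose helix-loop-helix proteins lack a DNA-binding region and sequester other helix-loop-helix factors. In the colon, BMP signals are known for promoting differentiation toward the crypt surface and TGF-beta for restraining epithelial growth, and SW480 is widely used as a SMAD4-deficient line.

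The libraries held 18042924 to 20428901 counts each. RBM39 itself fell by 37% in shRBM39 (log2 fold change -0.67, standard error, SE, 0.04, edgeR adjusted p 1.24e-16). All 6 colon epithelial markers examined (EPCAM, KRT8, KRT18, CDH1, VIL1 and CDX2) had a mean of at least 1 RPKM, whereas the fibroblast markers COL1A2, COL3A1, DCN and PDGFRB summed to at most 0.252 RPKM in any library. The leukocyte markers PTPRC, CD68 and CD3E summed to 7.31 to 7.69 RPKM in shCtrl and 7.04 to 7.63 RPKM in shRBM39, nearly all of it from CD68 with 283 to 341 counts in a library, while PTPRC had 0 counts in all 6 and CD3E at most 1. Among the epithelial markers, CDX2, an intestinal transcription factor, fell from 21.7 ± 0.616 to 4.95 ± 0.529 CPM (counts relative to the TMM-scaled library, SD, n = 3, edgeR adjusted p 2.44e-20), and CDH1 and VIL1 were called lower as well, at log2 fold changes of -0.39 and -0.09. KRT8 and KRT18 were called higher, at 0.43 and 0.24, and EPCAM was not called, at 0.02, so the 6 markers had no single direction and their summed level was 2310 to 2440 RPKM in shCtrl and 2620 to 2710 RPKM in shRBM39. Their part in the results was not tested.

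The promoters of 3 of these genes are shown first, because ID1 and ID2 changed in opposite directions and SMAD6 is a classical feedback target. Each is the stretch of 250 bases before the RefSeq transcription start (GRCh38.p14, 5′ to 3′), chr20:31605039-31605288 for ID1, chr2:8681806-8682055 for ID2 and chr15:66701986-66702235 for SMAD6, all on the plus strand. Capitals mark letters that SMAD proteins are known to bind, searched on both strands. The first was CAGAC, the core element best known for SMAD3 binding. The second was GGCGCC, one form of the GC-rich element of BMP-responsive genes, and another form of that element was GGAGCC. The palindrome GTCTAGAC, which overlaps none of them, was added after the sequences had been seen.
ID1: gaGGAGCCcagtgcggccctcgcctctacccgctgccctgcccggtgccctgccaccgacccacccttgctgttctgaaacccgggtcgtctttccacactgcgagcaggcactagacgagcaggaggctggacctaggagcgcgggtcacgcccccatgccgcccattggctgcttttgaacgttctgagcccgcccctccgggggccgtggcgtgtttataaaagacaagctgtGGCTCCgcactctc
ID2: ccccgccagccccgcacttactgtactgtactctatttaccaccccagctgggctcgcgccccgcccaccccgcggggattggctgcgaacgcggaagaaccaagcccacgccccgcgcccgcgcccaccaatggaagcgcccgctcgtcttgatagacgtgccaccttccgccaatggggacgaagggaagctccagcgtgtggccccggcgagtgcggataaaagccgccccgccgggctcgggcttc
SMAD6: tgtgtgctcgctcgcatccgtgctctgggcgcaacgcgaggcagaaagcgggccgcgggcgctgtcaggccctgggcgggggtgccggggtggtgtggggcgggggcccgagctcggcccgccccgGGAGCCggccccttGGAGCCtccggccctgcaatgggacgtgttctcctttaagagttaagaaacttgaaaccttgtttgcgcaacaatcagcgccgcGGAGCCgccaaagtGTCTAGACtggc

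The ID1 window held GGAGCC 2 times, once on each strand, the ID2 window held none of the 4 motifs, and the SMAD6 window held GGAGCC 3 times and the palindrome once, beginning 12 bases before the start. Of 35114 RefSeq windows of the same length, 30.6% held GGAGCC on either strand. The share was 38% for CAGAC and 16.4% for GGCGCC, and 0.182% of the windows held the palindrome. Of the 10 genes, 9 had a window, and BMP7 had none. Over all windows of the genes not shown, GGAGCC occurred in TGFB1 and SMAD3 (lower), BMP4 (higher), and SMAD7 and ID3 (not called). CAGAC occurred in SMAD3, BMP4, SMAD7 and ID3, and GGCGCC in SMAD3 and BMP4. The windows of TGFBR2 (higher) held none of the 4 motifs. GGAGCC thus occurred in TGFB1, SMAD3, SMAD6 and ID1, all lower, but also in BMP4, which was higher. It was absent from ID2 and TGFBR2, both higher. The genes differed in their number of windows, and whether any motif goes with the direction of change was not tested. These matches describe letters only and say nothing of binding in these cells.

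Of the 10 genes, 8 had an edgeR adjusted p under 0.05. TGFB1, BMP7, SMAD3, SMAD6 and ID1 were lower in shRBM39, and BMP4, TGFBR2 and ID2 were higher. SMAD7 and ID3 were not called. The background of this comparison was high, as 59.1% of the 18243 tested genes were called, 29.9% lower and 29.2% higher, so that the number called among the 10 is not a result about these genes, and the sizes below carry the description. In 63.3% of all tested genes the 3 values of each group did not overlap, so groups that lie apart below are description as well. The changes of SMAD3, ID2 and ID1 were the largest of the 10, and 89.4%, 85.8% and 85% of all tested genes had a smaller absolute log2 fold change. The median of the 10 was -0.24, against -0.01 over all tested genes. Under upper-quartile scaling, library totals alone and both fits on RPKM, the split was 2 higher and 6 lower in place of 3 and 5, since TGFBR2 lost its call and SMAD7 gained one. In bulk RNA, fewer cells that express a gene and less of its RNA in each cell cannot be told apart.

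**Figure D1:**
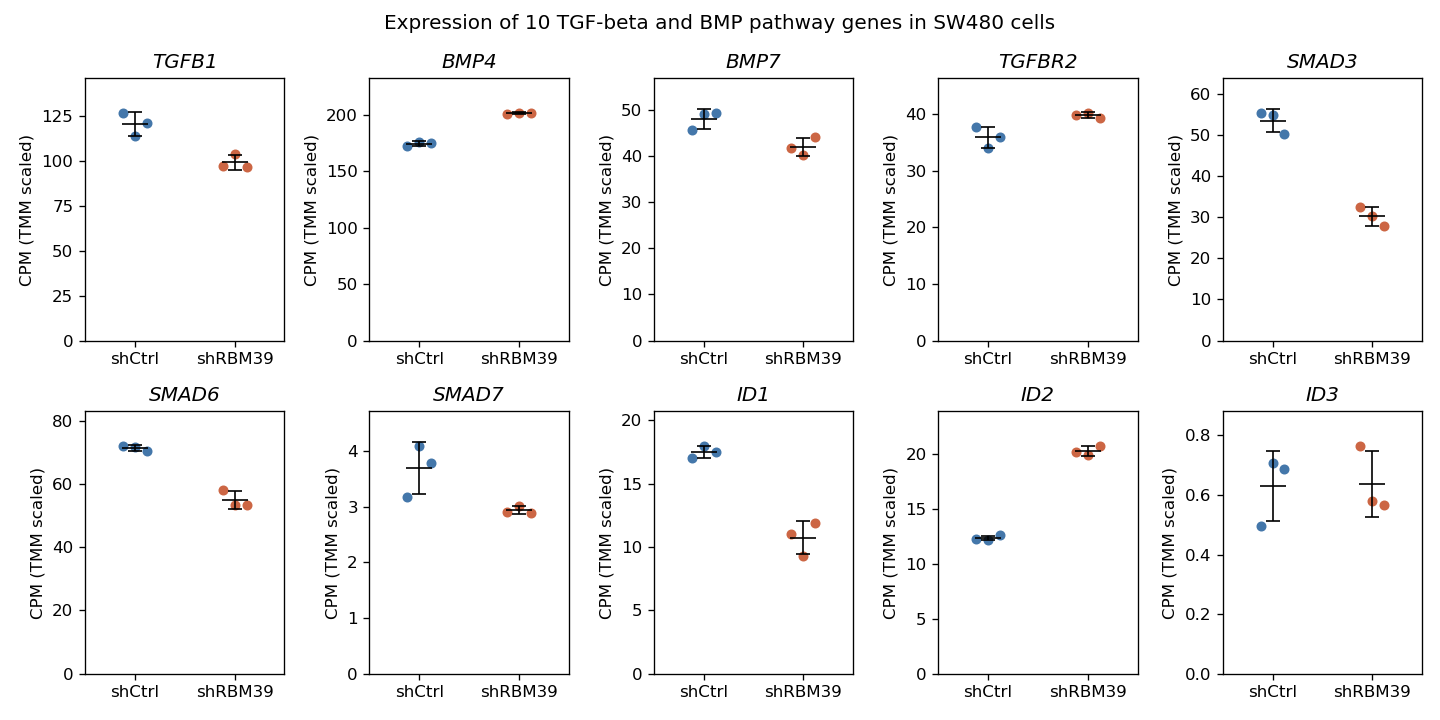
Each panel plots 1 gene, with the TMM-scaled CPM of each library on an axis from 0, points for the 3 libraries of shCtrl (blue) and shRBM39 (orange), and black bars for the mean ± SD (n = 3). The groups are apart in every panel but that of ID3, as they were in 63.3% of all tested genes. The widest relative gaps are those of SMAD3, ID1 and ID2.

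The ligands were examined first. TGFB1 (chromosome 19, 41301587 to 41353911, minus strand, GRCh38) encodes the prototype ligand of the family. Its level in CPM was 127, 114 and 121 in shCtrl and 97.1, 104 and 96.5 in shRBM39. The lowest shCtrl library lay above the highest shRBM39 library. The mean thus went from 120 ± 6.85 to 99.2 ± 4.24 CPM (SD, n = 3), and the log2 fold change was -0.28 (SE 0.04, edgeR adjusted p 1.34e-06). In GENCODE v44, exons of HNRNPUL1 lie opposite those of TGFB1 over up to 118 bases. HNRNPUL1 had 9689 to 11002 counts in a library and a log2 fold change of 0.18, and whether the counting used strand is not given, so its share of the TGFB1 counts is not known.

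BMP4 (chromosome 14, 53949736 to 53958761, minus strand), a BMP ligand of the epithelium and its stroma, moved the other way. It had 172, 176 and 175 CPM in shCtrl and 201, 202 and 202 CPM in shRBM39. The libraries of each group were nearly level and the groups were clearly apart. Its log2 fold change was 0.21 (SE 0.04, edgeR adjusted p 6.61e-06). It was 0.09 under library totals alone, still called with an edgeR adjusted p of 0.0341. A long non-coding RNA gene of GENCODE v44 lies opposite BMP4 with an exon overlap of up to 506 bases.

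BMP7 (chromosome 20, 57168748 to 57266629, minus strand), which encodes a BMP ligand able to pair with BMP4, had 45.7, 49.1 and 49.5 CPM in shCtrl and 41.9, 40.2 and 44.1 CPM in shRBM39. The groups did not overlap, but their nearest libraries were close. BMP7 fell by 0.19 on the log2 scale (SE 0.05, edgeR adjusted p 0.00136), with a value of -0.32 under library totals alone. The balance of these 2 ligands does not depend on how libraries are scaled. The ratio of BMP4 to BMP7 in RPKM, which also divides by gene length, was 6.64, 6.3 and 6.21 in shCtrl and 8.46, 8.85 and 8.05 in shRBM39. This ratio was one of 5 computed after the values had been seen, and its exact two-sided permutation p of 0.1 (0.1 after adjustment over the 5) is the smallest that 3 libraries against 3 allow.

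TGFBR2 (chromosome 3, 30606502 to 30694142, plus strand) encodes the type II receptor that binds TGF-beta. It had 37.8, 34.1 and 35.9 CPM in shCtrl and 39.9, 40.3 and 39.3 CPM in shRBM39. Every shRBM39 library was above every shCtrl library, by little. Its log2 fold change of 0.15 (SE 0.05, edgeR adjusted p 0.0133) was the smallest called among the 10. It was not called without shCtrl replicate 2, at 0.11 with an edgeR adjusted p of 0.0975, nor under DESeq2 at 0.16 with an adjusted p of 0.0619, nor under library totals alone at 0.03 with an edgeR adjusted p of 0.687. The ratio of TGFB1 to TGFBR2 in RPKM fell from 4.87 ± 0.0307 in shCtrl to 3.62 ± 0.115 in shRBM39 (SD, n = 3), with an exact permutation p of 0.1.

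SMAD3 showed the largest difference of the 10. SMAD3 (chromosome 15, 67063763 to 67195195, plus strand) encodes the transducer of the TGF-beta branch that binds DNA directly. It had 55.4, 54.8 and 50.2 CPM in shCtrl and 32.5, 30.3 and 27.8 CPM in shRBM39, so the groups lay far apart compared with their spread. Its mean fell by 43.5%, or -0.82 as a log2 fold change (SE 0.06, edgeR adjusted p 7.99e-15). SMAD3 was called in every alternative tried, with values from -0.95 under library totals alone to -0.72 after a correction for GC content and gene length. Its listed exons overlap those of a long non-coding RNA on the opposite strand by up to 182 bases.

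The inhibitory SMADs were lower as well, though only SMAD6 was called. SMAD6 (chromosome 15, 66702228 to 66782848, plus strand), which acts mainly against BMP receptors and their SMADs, had 72.2, 71.6 and 70.4 CPM in shCtrl and 58.2, 53.3 and 53.4 CPM in shRBM39. Its log2 fold change was -0.38 (SE 0.05, edgeR adjusted p 9.25e-09). The fall of SMAD6 was smaller than that of SMAD3, and the ratio of SMAD6 to SMAD3 in RPKM rose from 1.42 ± 0.0617 to 1.94 ± 0.0899 (SD, n = 3, exact permutation p 0.1).

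SMAD7 (chromosome 18, 48919853 to 48950711, minus strand), which inhibits both branches at the receptor, had only 52 to 87 counts in a library. Its levels were 3.18, 4.1 and 3.79 CPM in shCtrl and 2.91, 3.02 and 2.89 CPM in shRBM39. The groups did not overlap, as in 63.3% of all tested genes, and the spread of shCtrl was the wider. SMAD7 had a log2 fold change of -0.33, a 95% interval from -0.64 to -0.02 and an edgeR adjusted p of 0.0627. Without shCtrl replicate 1 it was called, at -0.42 with an edgeR adjusted p of 0.0285, and under library totals alone it was -0.45 with an edgeR adjusted p of 0.0111. The data thus do not settle whether SMAD7 changed.

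**Figure D2:**
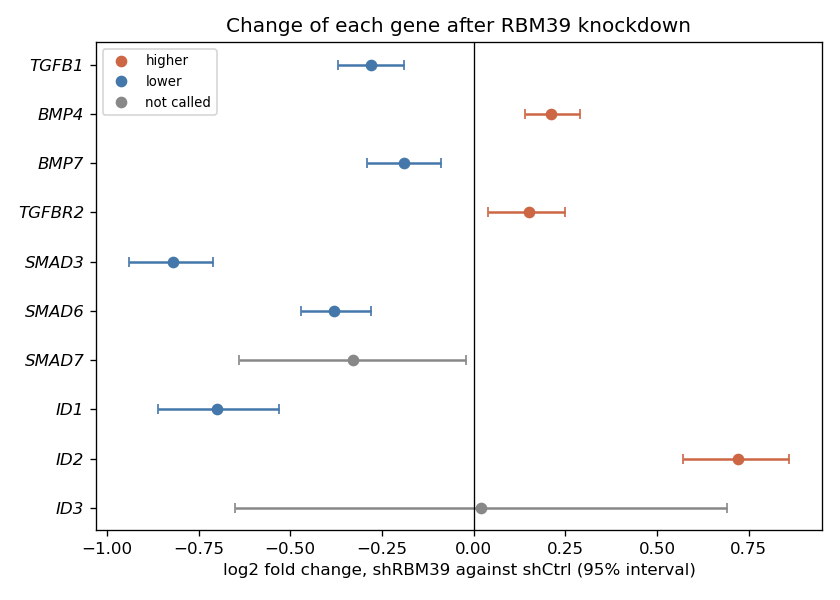
The points give the log2 fold change of shRBM39 against shCtrl for each of the 10 genes, with bars for the 95% interval of the edgeR fit (n = 3 per group). Orange marks genes called higher, blue genes called lower and grey genes not called. SMAD3 and ID1 lie farthest to the left, ID2 farthest to the right, and the interval of ID3 reaches from -0.65 to 0.69.

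The ID genes did not move together. ID1 (chromosome 20, 31605283 to 31606515, plus strand), the ID gene with the highest level in shCtrl, had 17, 18 and 17.5 CPM there and 11, 9.3 and 11.9 CPM in shRBM39. The shRBM39 libraries varied more among themselves, yet all lay well below shCtrl. The mean CPM of ID1 fell by 38.5%, and the log2 fold change was -0.70 (SE 0.08, edgeR adjusted p 6.38e-09).

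ID2 (chromosome 2, 8678845 to 8684453, plus strand) went up by about as much as ID1 went down. It had 12.3, 12.2 and 12.6 CPM in shCtrl and 20.2, 19.9 and 20.8 CPM in shRBM39, with hardly any spread in either group. ID2 rose by 64.1% in mean CPM, which is 0.72 on the log2 scale (SE 0.07, edgeR adjusted p 1.39e-10). The antisense gene ID2-AS1, which overlaps ID2 by up to 125 bases, had at most 11 counts in a library. ID1 and ID2 kept their direction and their call in every alternative tried, with ranges from -0.82 to -0.60 and from 0.52 to 0.73.

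ID3 (chromosome 1, 23557918 to 23559794, minus strand) was barely expressed. It had 10, 15 and 14 counts in shCtrl and 15, 10 and 11 in shRBM39, and the groups overlapped. For ID3 the log2 fold change was 0.02 with a 95% interval from -0.65 to 0.69 (edgeR adjusted p 0.965). A change of the size seen in ID1 would lie at or just beyond the edge of that interval. With an SE of 0.33, a true change of that size or smaller could go uncalled at this depth. ID4, the fourth gene of the family, had 0 counts in all 6 libraries.

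Within each library the ratio of ID1 to ID2 in RPKM was 2.47, 2.65 and 2.47 in shCtrl and 0.978, 0.834 and 1.03 in shRBM39. ID1 thus stood well above ID2 in every shCtrl library and at about the same level in every shRBM39 library. The difference of the log2 ratio was -1.42, with an exact permutation p of 0.1, and lay from -1.48 to -1.34 when any single library was left out.

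**Figure D3:**
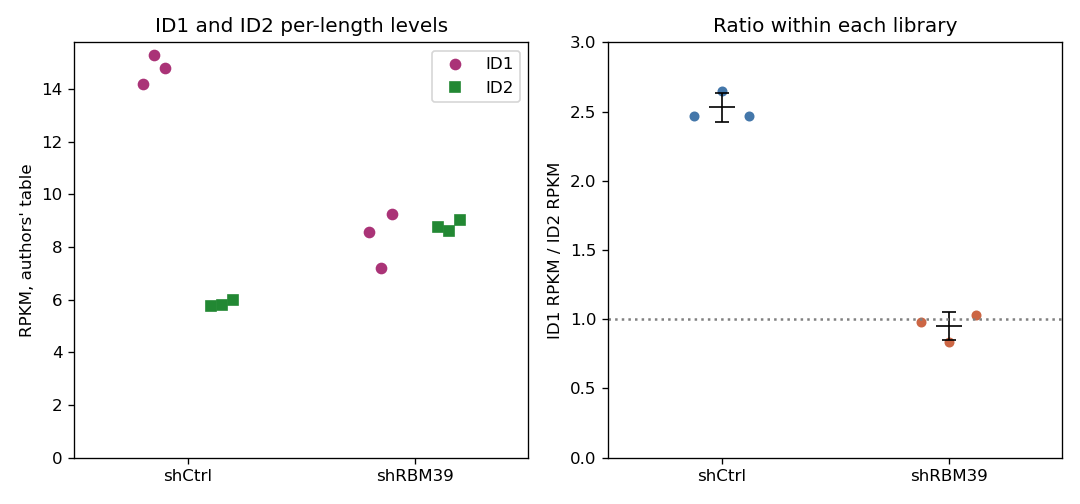
The left panel plots the RPKM of ID1 (circles) and ID2 (squares) in each of the 3 libraries of a group, and the right panel the ratio of the 2 values in each library with the mean ± SD (n = 3). The ratio lies between 2.47 and 2.65 in shCtrl and around 1, the dotted line, in shRBM39.

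The order of the 10 genes by level was compared in RPKM, reads scaled to gene length and library size, since counts of genes of different length are not comparable. In shCtrl, BMP4 led at 59 ± 1.14 RPKM, followed by TGFB1 at 38.8 ± 1.87 and ID1 at 14.8 ± 0.561 RPKM (SD, n = 3). BMP7, SMAD6, TGFBR2, SMAD3 and ID2 lay between 9.25 and 5.85 RPKM, where BMP7 and SMAD6 overlapped, as did SMAD3 and ID2. SMAD7 at 1.04 ± 0.141 and ID3 at 0.366 ± 0.0707 RPKM were last. In shRBM39, BMP4 and TGFB1 still led, at 62.7 ± 0.0624 and 29.3 ± 1.18 RPKM (SD, n = 3). ID2 at 8.81 RPKM came next and overlapped with ID1 at 8.34 RPKM, which in turn overlapped with TGFBR2 at 8.1 RPKM.

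SMAD4, the shared partner of both branches, was close to absent. It had 19, 16 and 23 counts in shCtrl and 5, 12 and 7 counts in shRBM39, over 13123 bases of merged exons. Its level was 0.0749 ± 0.015 RPKM in shCtrl and 0.0319 ± 0.0167 RPKM in shRBM39 (SD, n = 3), against 6.11 and 3.17 RPKM for SMAD3. SMAD4 had a log2 fold change of -1.12 (SE 0.35, edgeR adjusted p 0.00641). It was no longer called without shRBM39 replicate 1, at -0.84 with an edgeR adjusted p of 0.0603, nor by DESeq2, with an adjusted p of 0.0757. In GENCODE v44 a protein-coding gene on the same strand shares up to 376 bases of an exon with SMAD4.

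Of the receptor-activated SMADs outside the 10 genes, SMAD5 and SMAD9 of the BMP branch were lower. SMAD5 had 13.9, 13.2 and 12.5 CPM in shCtrl and 10.5, 10.8 and 10.6 CPM in shRBM39, or -0.31 as a log2 fold change (SE 0.08, edgeR adjusted p 0.00144). SMAD9 had a log2 fold change of -1.22 (SE 0.37, edgeR adjusted p 0.00475) on 3 to 21 counts in a library. SMAD1 and SMAD2 did not pass the test, at log2 fold changes of 0.11 (95% interval -0.07 to 0.30) and 0.01 (95% interval -0.15 to 0.16), and their signs turned under library totals alone. SMAD2 was called as higher after the correction for GC content and gene length, at 0.20 with an edgeR adjusted p of 0.0172. The levels of SMAD1, SMAD2 and SMAD5 in shCtrl were 1.7, 0.566 and 1.57 RPKM, all below that of SMAD3.

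**Figure D4:**
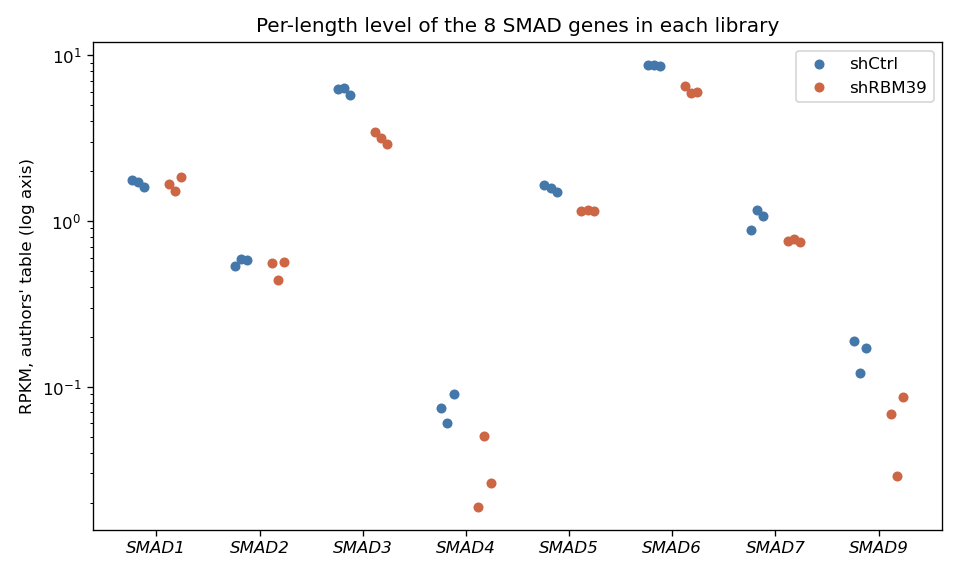
The RPKM of each of the 8 SMAD genes is plotted for each library on a log axis, with shCtrl in blue and shRBM39 in orange. SMAD6 and SMAD3 are the highest and SMAD4 is the lowest in shCtrl, at 0.0603 to 0.0902 RPKM.

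A list of 80 other genes of both pathways, written with earlier results of these data known, was read in the same fit. Of the 67 that could be tested, 34 were lower, 11 higher and 22 not called, against 29.9% lower and 29.2% higher among all tested genes. The median log2 fold change of the 67 was -0.25, against -0.01 over all tested genes. The counts by role below stand against the same shares, with 59.1% of all tested genes called in either direction. The share called was 54.5% of the ligands, 41.7% of the receptors, 85.7% of the TGF-beta targets and 83.3% of the BMP targets. It was 80% of the extracellular modulators, 71.4% of the SMAD regulators and 60% of the SMADs. With few genes in a role and a list written with results known, these counts are description only. The split was 42 lower and 7 higher under library totals alone and 31 lower and 16 higher after the correction for GC content and gene length.

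Of 11 other ligands tested, 4 were lower, 2 higher and 5 not called. INHA, which encodes the alpha subunit of inhibin, had the largest difference, from 1.68 ± 0.342 to 0.641 ± 0.0807 CPM (SD, n = 3), or -1.39 on the log2 scale (edgeR adjusted p 4e-05). BMP8B was lower at -0.80 (edgeR adjusted p 1.14e-07) and BMP6 higher at 1.02 (edgeR adjusted p 0.00198), the latter on 10 to 29 counts in a library.

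Of 12 other receptors, 4 were lower, 1 higher and 7 not called. BMPR2, the type II receptor for BMPs, had 27.1, 28.1 and 26.3 CPM in shCtrl and 14.6, 14.1 and 13.6 CPM in shRBM39. The groups lay far apart, and the mean of BMPR2 fell by 48.1% (log2 fold change -0.95, SE 0.07, edgeR adjusted p 2.98e-14). ACVR2B, an activin type II receptor, was lower at -0.47 (edgeR adjusted p 0.000119) and ACVRL1, a type I receptor best known from endothelium, higher at 1.10 (edgeR adjusted p 0.00032) on 14 to 37 counts. The endothelial markers PECAM1 and VWF moved with ACVRL1, at log2 fold changes of 0.79 and 1.39, while CDH5 had at most 1 count in a library and the 3 markers summed to 0.44 to 0.597 RPKM in shCtrl and 0.761 to 0.93 RPKM in shRBM39. Their part in the result was not tested. TGFBR1, the type I partner of TGFBR2, and BMPR1A, a type I receptor for BMPs, were not called, at 0.13 (95% interval -0.04 to 0.29) and -0.10 (95% interval -0.25 to 0.04). TGFBR1 was called as higher after the correction for GC content and gene length, at 0.18 with an edgeR adjusted p of 0.0487, and BMPR1A as lower under library totals alone, at -0.23 with an edgeR adjusted p of 0.00834.

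Of 14 regulators of SMAD activity, 9 were lower, 1 higher and 4 not called. SKIL, a nuclear corepressor of SMADs that TGF-beta also induces, fell from 32.7 ± 0.629 to 21.6 ± 1.46 CPM (SD, n = 3, log2 fold change -0.60, edgeR adjusted p 1.43e-10). BAMBI, a receptor-like inhibitor that lacks a kinase, fell from 59.8 ± 1.3 to 44.6 ± 2.71 CPM (SD, n = 3, log2 fold change -0.43, edgeR adjusted p 2.6e-09). USP9X, a deubiquitinase that acts on SMAD4 among other proteins, fell by 0.49 on the log2 scale (edgeR adjusted p 3.01e-13).

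Of the 20 extracellular modulators, 10 could be tested, of which 5 were lower, 3 higher and 2 not called. LTBP4 and LTBP2, members of the family of latent TGF-beta binding proteins, had log2 fold changes of -0.93 (edgeR adjusted p 7.45e-13) and -0.99 (edgeR adjusted p 0.000802). FURIN, the protease that cleaves the TGF-beta and BMP precursors, had 27.9, 27.1 and 26.5 CPM in shCtrl and 16.2, 14.7 and 14.2 CPM in shRBM39. FURIN thus fell by 44.6%, a log2 fold change of -0.85 (edgeR adjusted p 4.74e-13). The secreted antagonist NOG had 0 counts in all 6 libraries.

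Of 14 genes known as TGF-beta targets, 8 were lower, 4 higher and 2 not called, so the list had no single direction. CDKN2B, which encodes a CDK inhibitor of the TGF-beta growth arrest, had 71.4, 74.1 and 74.6 CPM in shCtrl and 26.6, 33.3 and 30.5 CPM in shRBM39 (log2 fold change -1.29, edgeR adjusted p 3.94e-20). FN1, which encodes fibronectin, had 93, 104 and 97.2 CPM in shCtrl and 45.7, 43 and 42.9 CPM in shRBM39 (log2 fold change -1.16, edgeR adjusted p 1.35e-20). In both genes the groups lay far apart. TNC, which encodes the matrix protein tenascin C, rose instead from 50.5 ± 1.4 to 91.8 ± 6.73 CPM (SD, n = 3, log2 fold change 0.86, edgeR adjusted p 7.32e-17).

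Of the 6 other BMP targets tested, 5 were lower and 1 was not called, against 29.9% lower among all tested genes. The lower ones include SMAD9, on 3 to 21 counts in a library. HEY1, a transcriptional repressor shared with Notch signalling, had 28, 44 and 47 counts in shCtrl and 19, 12 and 18 in shRBM39 (log2 fold change -1.14, edgeR adjusted p 0.000211). ATOH8, a helix-loop-helix factor, had 64, 63 and 69 counts in shCtrl and 41, 29 and 27 in shRBM39 (log2 fold change -0.88, edgeR adjusted p 0.000101). BAMBI, described above, belongs to this list as well.

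**Figure D5:**
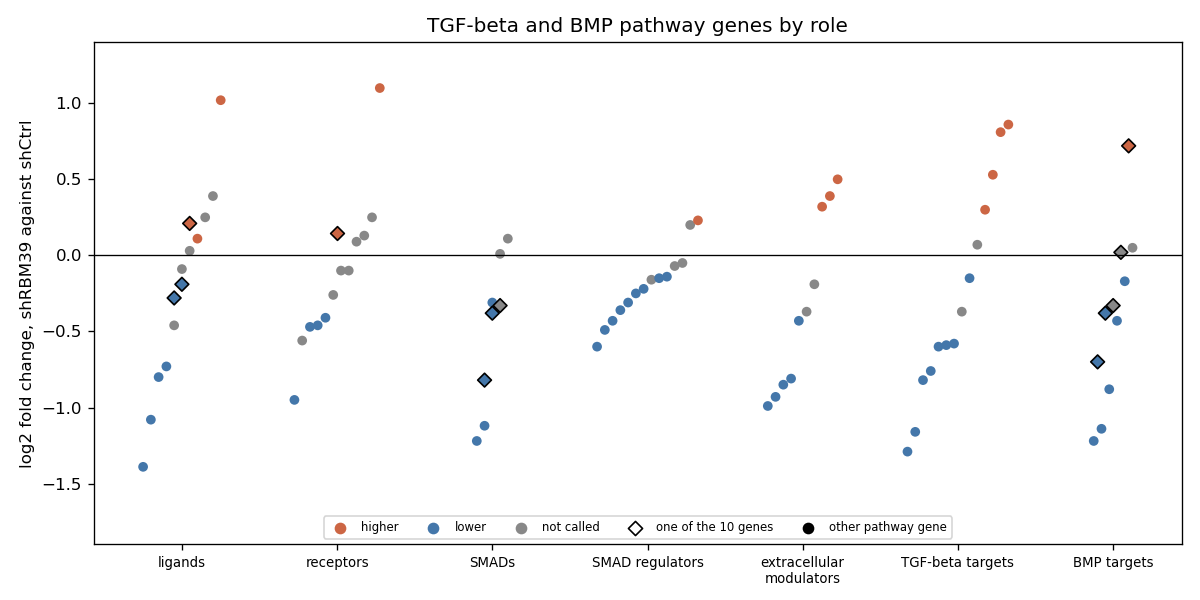
Each point is the log2 fold change of shRBM39 against shCtrl for 1 tested gene, grouped by role, with diamonds for the 10 genes and circles for the other pathway genes, coloured by call as in the plot of intervals. Genes with 2 roles appear under each. Genes called lower outnumber those called higher in every role, against 29.9% lower and 29.2% higher among all tested genes. ID2 stands above the other BMP targets.

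As a second readout, the splicing events listed by the authors with rMATS were searched for these genes. The table lists no event whose inclusion differed by less than 0.1 between its groups. Its records thus appear to have been chosen at least in part by that difference, though the rule is not given. Levels that lie apart below are therefore description only. Among its 1582 records 0 belonged to the 10 genes. Among the other pathway genes, 6 skipped-exon records of 4 genes were listed, in TGFBR1, FN1, LTBP4 and TNC. The table names its groups only 1 and 2 and gives no key. The FN1 exon of 270 nucleotides (chromosome 2, 215380811 to 215381080) had at least 41 reads in a library, of which only 2 to 6 skipped the exon, with inclusion of 0.844, 0.75 and 0.75 in group 1 against 0.931, 0.959 and 0.85 in group 2. The TGFBR1 exon of 246 nucleotides (chromosome 9, 99128855 to 99129100) was covered by as few as 4 reads, and its inclusion was 1, 1 and 0.776 in group 1 against 0.776, 0.757 and 0.316 in group 2. The FN1 levels did not overlap, though the nearest were 0.844 and 0.85, and those of TGFBR1 met at a shared value. An LTBP4 exon of 132 nucleotides (chromosome 19, 40616889 to 40617020) had 0.332, 0.142 and 0.398 in group 1 against 0.817, 0.528 and 0.544 in group 2. The other LTBP4 exon, of 72 nucleotides (chromosome 19, 40622950 to 40623021), had 0.659, 0.763 and 0.72 in group 1 against 1, 0.885 and 1 in group 2. Neither LTBP4 exon overlapped between the groups, on as few as 4 reads in a library. A TNC exon of 273 nucleotides (chromosome 9, 115057153 to 115057425) had 0.114, 0.139 and 0.177 in group 1 against 0, 0 and 0.075 in group 2, on as little as 1 read. Another TNC exon of that length (chromosome 9, 115064647 to 115064919) had 0.819, 1 and 0.301 in group 1 against 1 in all 3 of group 2, on as few as 7 reads. The levels of the former did not overlap and those of the latter met at 1.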

How the data were processed

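Raw counts by gene symbol, RPKM values and rMATS event records were deposited by the authors. The submitters' processing notes name Trimmomatic 0.36, STAR 2.5.3a, featureCounts, Subread 1.5.1, edgeR 3.12.1 and GRCh38. Strand setting, collapse of unique identifiers and multi-mapped reads are not given. Columns named NC were taken to be shCtrl, the one control group in the labels. The deposited RPKM values were recomputed from the counts to a relative difference of at most 5.14e-15. Of 2798 exons of the genes examined, 90.9% were identical to GENCODE v44 exons. The authors' p-values and FDR were not used. Event starts, counted from 0 in the deposited table, are given counting from 1.

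In R 4.3.3, genes kept by filterByExpr of edgeR 4.0.16 were scaled by TMM and fitted on group alone with its quasi-likelihood test. P-values were adjusted by Benjamini-Hochberg across every gene tested, with calls at 0.05. CPM carry the TMM factors. Standard errors derive from the F statistic. The 10 genes and the pathway lists were chosen with earlier results of these data known. Other genes were named if always listed (SMAD1, SMAD2, SMAD4, SMAD5, TGFBR1, BMPR1A, BMPR2, ID4) or among the up to 3 largest changes of a role that were called, did not overlap and averaged 1 CPM or more. Levels between genes were compared in the authors' RPKM. Motif matches were counted in RefSeq windows.

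Other settings tried were scaling by upper quartile or by library totals alone, DESeq2 1.42.0, testing all genes or those with 10 or more counts in each library, limma-trend (limma 3.58.1) on log2(RPKM + 1) and on log2(RPKM + 0.1), a block for the replicate number, leaving out each library, calls at 0.01, testing for changes beyond 0.5 (log2) and a per-library correction for GC content with gene length (mgcv 1.9.3). Leaving libraries out of the ID1 to ID2 ratio was added after seeing the data. In simulated counts for this comparison with 200 changed genes, edgeR recovered 100% of log2 changes of 1 and 86% of those of 0.5. It called 0.056% of unchanged genes among 18184. With a trend in GC content added to the simulated counts, the same fit called 29.28% of unchanged genes, and 0.044% after the correction. The changed genes were not drawn from those with the fewest counts, and a single level of variation was used. These rates need not hold for genes as low as ID3, nor where 59.1% of genes are called. Replicates of a group differed by more than sampling noise (chi-square per degree of freedom 2.11 to 4.21). Whether they came from separate infections is not given, so p-values measure only the spread between these samples.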

Additional observations from a re-analysis of the deposited data

How the results depend on the processing

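The number of the 10 genes called stayed between 7 and 9 in every alternative except the test for changes beyond 0.5 on the log2 scale, where 3 remained past the threshold (SMAD3, ID1 and ID2), with 16 of the other pathway genes and 2232 of all genes, since that test asks for a larger difference. Library totals alone moved the median log2 fold change of all tested genes from -0.01 to -0.14, and log2(RPKM + 0.1) to -0.13. Signs turned only for genes that were not called. ID3 was -0.01 under upper-quartile scaling, -0.10 under library totals alone, -0.03 on log2(RPKM + 1), -0.08 on log2(RPKM + 0.1), 0 once GC content and length were corrected for, and from -0.13 to 0.11 with 1 library left out. SMAD2 was -0.03 under upper-quartile scaling, -0.12 under library totals alone, -0.04 on log2(RPKM + 1), -0.11 on log2(RPKM + 0.1), 0 with at least 10 counts in every library, and from -0.05 to 0.11 with 1 library left out. SMAD1 was -0.01 under library totals alone, -0.01 on log2(RPKM + 1) and -0.02 on log2(RPKM + 0.1), and BMPR1A was 0.01 once GC content and length were corrected for. The cause was not tested. Same-numbered libraries did not deviate together (correlations of 0.01, -0.05 and 0.04). No shared deviation was thus seen, which cannot settle whether the numbers mark pairs. With the replicate block, 8 of the 10 genes, 45 of the other pathway genes and 10810 of all genes were called, and no call among the 10 changed. Low counts limit the precision for ID3 (10 to 15 counts in a library), SMAD4 (5 to 23) and SMAD7 (52 to 87).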

Other observations

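Some pathway genes outside the rule for named genes are given here after their values were seen. INHBB, which encodes an activin and inhibin beta subunit, had a high level that differed little between the groups, 206 ± 10.1 CPM in shCtrl and 210 ± 8.22 CPM in shRBM39 (SD, n = 3), with a log2 fold change of 0.03 and a 95% interval from -0.05 to 0.11. GDF15, a distant ligand of the family, fell from 42.7 ± 0.537 to 25.7 ± 1.45 CPM (SD, n = 3, log2 fold change -0.73, edgeR adjusted p 9.59e-14). ITGAV, an integrin subunit, fell from 15.4 ± 0.78 to 8.76 ± 1.84 CPM (SD, n = 3, log2 fold change -0.81, edgeR adjusted p 1.03e-08), and THBS1, which encodes thrombospondin, rose from 16.8 ± 0.832 to 23.7 ± 1.87 CPM (SD, n = 3, log2 fold change 0.50, edgeR adjusted p 1.82e-07).

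Among TGF-beta targets, COL1A1, a collagen chain gene, rose from 5.57 ± 0.104 to 9.8 ± 1.29 CPM (SD, n = 3, log2 fold change 0.81, edgeR adjusted p 8.04e-08), whereas COL1A2, its partner chain in type I collagen, had at most 3 counts in any library. SMAD9 fell from 0.879 ± 0.197 to 0.366 ± 0.175 CPM (SD, n = 3, log2 fold change -1.22, edgeR adjusted p 0.00475) on 3 to 21 counts in a library.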
